A study of Mus musculus with 30 samples.

Results

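Loss of Aire in mature medullary thymic epithelial cells (mTEChi) was measured in 8 of the 30 samples of the series: 4 libraries labelled Aire-KO against 4 labelled WT. The libraries were taken by their labels, as the mTEChi gene count files of both genotypes from mice given PBS or spermidine by intraperitoneal injection. Earlier results of these data were known when they were chosen. They form 4 groups of 2: WT with PBS, WT with spermidine, Aire-KO with PBS and Aire-KO with spermidine. All mice were female C57BL/6J aged 4 to 6 weeks, and each library came from 1000 flow-sorted cells of digested, CD45-depleted thymus, amplified from polyadenylated RNA by Smart-seq2. The sources used here do not give doses, injection schedules or the structure of the Aire allele. Nothing in the labels ties the libraries to separate animals, so p-values measure the spread between these libraries, which may be technical. The PBS libraries (2 WT, 2 KO) and the spermidine libraries (2 WT, 2 KO) have no library in common, so they give the same genotype contrast as separate repeats.

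Medullary thymic epithelial cells show developing T cells the proteins of the rest of the body. Aire is the nuclear regulator in these cells that brings out transcripts of single peripheral tissues, from digestive enzymes to hormones, and T cells that bind the resulting peptides are deleted or become regulatory T cells. Mature cells carry high MHC class II and CD80 on their surface. A part of the medulla also takes on the look of other epithelia, such as tuft, microfold, ciliated or secretory cells, and these are called mimetic cells.

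The 8 libraries held 2027205 to 3176376 counts. Levels are given as CPM, counts scaled to a common library size after TMM normalization, fold changes are log2 of KO over WT with treatment as a covariate, and a gene was called at an adjusted p under 0.05 in edgeR's quasi-likelihood test. Of 55011 genes in the files, 15750 had enough counts to be tested. In sorted bulk cells, fewer cells of a type and less RNA per cell cannot be told apart.

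Aire itself, the gene named by the genotype, lies on chromosome 10 (78030022 to 78043610, minus strand, mm10). Its level was 1598 and 1601 CPM in WT PBS, 1693 and 1783 in WT spermidine, 4886 and 4033 in KO PBS and 3944 and 4004 in KO spermidine. Every KO library lay above every WT library. The change was 1.34 on the log2 scale (SE 0.0746, edgeR adjusted p = 1.05e-08), 1.48 in the PBS pair and 1.19 in the spermidine pair. The counts are summed over all exons of the gene, so they do not show which exons the transcripts held and do not check the knockout label.

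The largest falls were in 12 genes with no count in any of the 4 KO libraries. The first of them was Prss29, a serine protease of the uterus (chromosome 17, 25318654 to 25322684, plus strand), at 56.7, 26.1, 81.5 and 66.8 CPM in WT PBS 1, WT PBS 2, WT spermidine 1 and WT spermidine 2. Next were Sbpl, a spermine-binding protein-like gene on the same chromosome (23953084 to 23955274, minus strand), and Reg3b, an antimicrobial lectin of the gut. In the other direction stood Rgr, an opsin-like protein of the retina (chromosome 14, 37034909 to 37048964, minus strand), and the odorant receptor Olfr1136. The 100 bases before the transcription start of Prss29, Sbpl, Rgr and Olfr1136, from RefSeq's GRCm38.p6 annotation, are shown as examples of starts whose letters are counted over all matched genes further on. They are written 5′ to 3′ along the gene's strand and capitals mark the letters TATAAA:
Prss29, chr17:25318554-25318653, plus strand: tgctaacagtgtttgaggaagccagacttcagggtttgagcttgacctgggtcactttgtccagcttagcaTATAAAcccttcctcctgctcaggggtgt
Sbpl, chr17:23955274-23955373, minus strand: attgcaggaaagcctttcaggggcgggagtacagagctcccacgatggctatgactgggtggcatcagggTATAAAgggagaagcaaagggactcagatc
Rgr, chr14:37049015-37049114, minus strand: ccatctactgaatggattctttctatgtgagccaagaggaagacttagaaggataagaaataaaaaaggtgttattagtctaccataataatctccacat
Olfr1136, chr2:87693948-87694047, minus strand: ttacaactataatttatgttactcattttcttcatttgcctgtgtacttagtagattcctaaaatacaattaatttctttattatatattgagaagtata
The TATAAA letters stood close before the start in the 2 genes that fell and were not found in these bases of the 2 that rose.

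Across the 15750 tested genes, 4515 were called (28.7%), 2436 lower (15.5%) and 2079 higher (13.2%) in KO cells. The calls were unequal in size. At least 2-fold changes made up 1710 of the lower calls (10.9% of tested genes) but 639 of the higher calls (4.06%), so most genes that rose did so by less than 2-fold. The 4 KO and the 4 WT libraries did not overlap for 1884 of the genes called lower and 1818 of those called higher. These are 12% and 11.5% of the tested genes. Called or not, 2246 tested genes (14.3%) were lower in KO libraries without overlap and 2194 (13.9%) higher. Of the lower genes, 83 had no count in any KO library, out of 93 such genes among all tested. No tested gene lacked counts in all 4 WT libraries (0), so none of the higher genes could. The split between higher and lower depends on scaling. With library totals in place of TMM, 4681 genes were called, 1399 higher and 3282 lower, so that the higher share of calls went from 46% to 29.9%, and the median log2 change of all tested genes moved from −0.03 to −0.18.

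The genes that fell furthest are known from the uterus, gut, brain, liver and pancreas among other tissues. Among called genes that averaged at least 5 CPM and did not overlap between genotypes, the 12 largest falls all had 0 counts in the 4 KO libraries, so their folds are lower bounds set against 3 counts over the KO group. Prss29 was at least 183-fold lower. Sbpl was at 44.2, 33.2, 16.7 and 56.0 CPM in the WT libraries (in the order above) and at least 119-fold lower, and Reg3b was at 24.8, 11.4, 81.9 and 33.6 CPM and at least 120-fold lower. Sbpl, Reg3b and Prss29 each have near copies close by in the genome, between which reads may be divided. Rln3, the brain peptide relaxin-3, was at 16.2, 47.4, 24.8 and 40.1 CPM in WT cells and at least 102-fold lower. Rbp4, the liver's carrier of retinol in blood, was at 7.18, 19.9, 50.7 and 34.0 CPM and at least 88.6-fold lower. WT libraries of the same treatment differed by more than 2-fold in Reg3b, Rln3 and Rbp4, and no KO library had a count of any of them.

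Gip, a gut hormone that raises insulin release, and Pla2g1b, the pancreatic phospholipase A2, were steadier. Gip was at 26.2, 20.4, 23.4 and 21.1 CPM and at least 72.2-fold lower in KO cells (edgeR adjusted p = 6.25e-07). Pla2g1b was at 18.7, 23.7, 18.8 and 19.4 CPM and at least 63.8-fold lower (edgeR adjusted p = 1.06e-06). The neuronal calcium-binding protein Calb2 was at 53.5, 9.48, 29.8 and 27.6 CPM and at least 95.3-fold lower, but its call was lost without either of the WT spermidine libraries. The others were the potassium channel subunit Kcne1l (at least 54.8-fold), the cilia assembly gene Zmynd10 (52.7-fold), the cytotoxic protease Gzmb (48.6-fold) and the cornification gene Sprr2f (41.3-fold). Sprr2f was at 17.6 and 24.7 CPM in WT PBS and at 2.13 and 7.76 in WT spermidine. Taken alone, the spermidine pair did not call Sbpl (edgeR adjusted p = 0.0558) or Kcne1l (edgeR adjusted p = 0.0671). The PBS pair did not call Calb2 (edgeR adjusted p = 0.159). The rest of the 12 were called in each pair. Kcne1l also lost its call with the replicate number as a block.

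**Figure D1:**
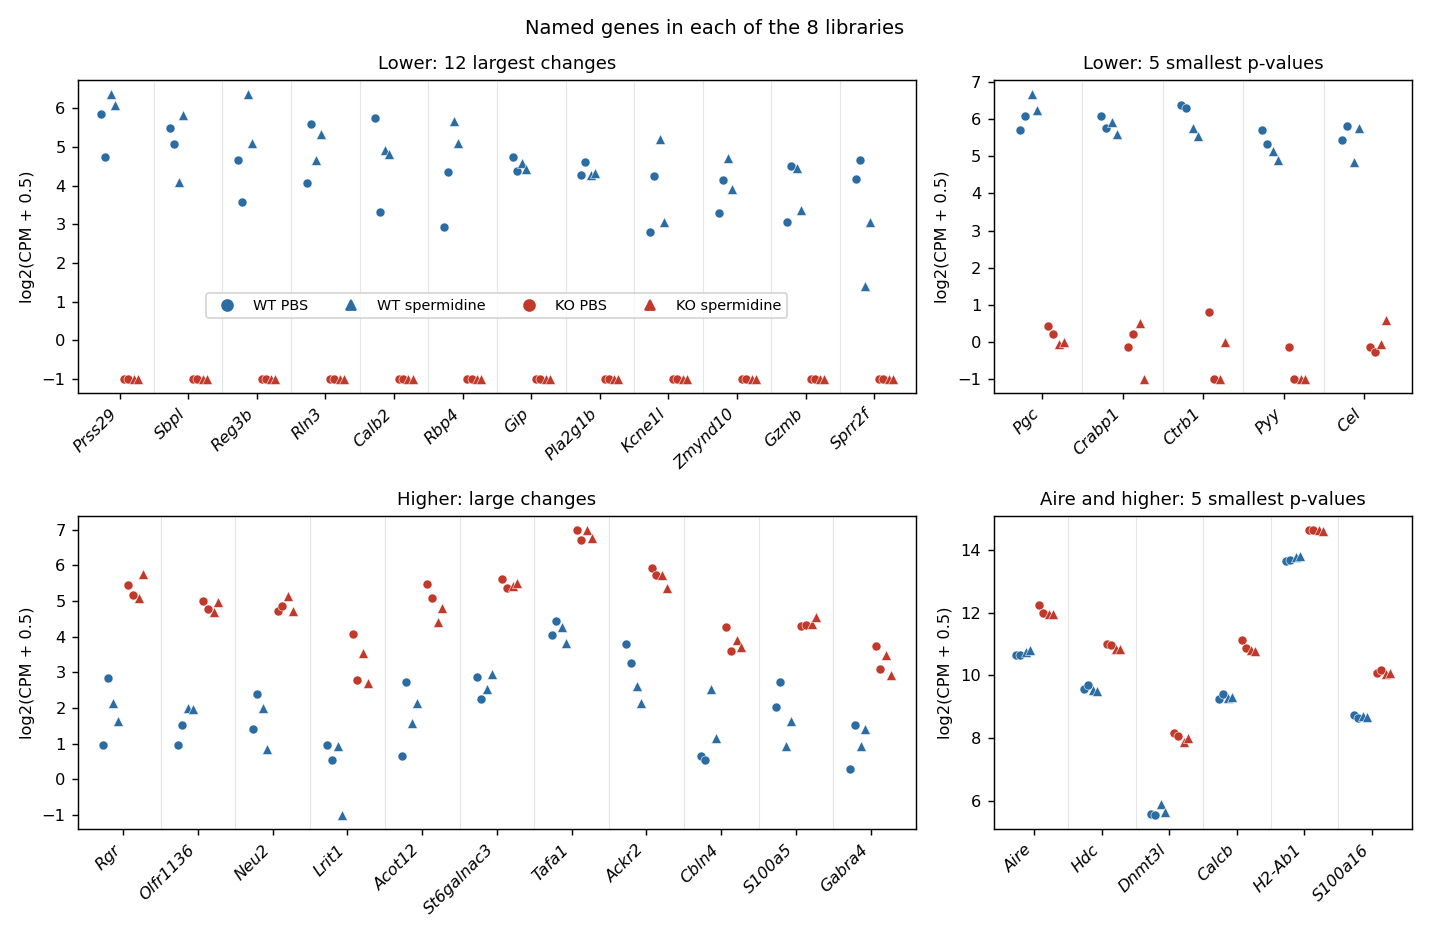
Level of each named gene in each of the 8 libraries, as log2(CPM + 0.5), with circles for PBS and triangles for spermidine, blue for WT and red for KO. In the upper left panel all 12 genes sit at the floor of the axis in the 4 KO libraries, where Prss29 in WT cells was at 26.1 to 81.5 CPM. In the lower panels every KO point lies above every WT point of its gene, which was a condition for naming these genes, apart from Aire.

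The 5 lower genes with the smallest p kept counts in some or all KO libraries. Pgc, the stomach's progastricsin, was at 51.4, 67.8, 102 and 75.8 CPM in WT and at 0.835, 0.670, 0.468 and 0.502 CPM in KO cells (log2 change −6.72, SE 0.296, edgeR adjusted p = 2.74e-09). The pancreatic chymotrypsinogen Ctrb1 went from 65.4 ± 18.4 CPM to 0.439 ± 0.592 (SD, n = 4 each; log2 change −7.16). Crabp1, a carrier of retinoic acid inside cells, went from 57.6 ± 8.41 to 0.506 ± 0.398 CPM. The gut hormone Pyy went from 39.0 ± 9.73 CPM to 0.104 ± 0.209, and Cel, the bile salt-dependent lipase of the pancreas, from 45.2 ± 12.7 to 0.556 ± 0.304. All 5 were called in the PBS pair and in the spermidine pair taken alone, and none lost its call when any of the 8 libraries was left out.

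The largest rises were in genes with few counts in WT cells. Rgr, the retinal opsin relative whose start is printed above, was at 1.44, 6.64, 3.90 and 2.59 CPM in WT libraries and at 43.4, 35.2, 33.7 and 53.8 CPM in KO libraries (log2 change 3.53, SE 0.336, edgeR adjusted p = 2.48e-06). Lrit1, a photoreceptor membrane protein, starts next to Rgr on the opposite strand (chromosome 14, 37054830 to 37064946) and rose from 0.951 ± 0.673 to 9.98 ± 4.83 CPM (SD, n = 4 each). Both neighbours thus rose together. Olfr1136 was at 1.44, 2.37, 3.54 and 3.45 CPM in WT and at 31.3, 26.8, 25.3 and 30.6 in KO cells (log2 change 3.40). The sialidase Neu2 rose by 3.28, the acetyl-CoA hydrolase Acot12 by 3.22 and the sialyltransferase St6galnac3 by 2.88 on the log2 scale. The secreted protein Tafa1 went from 17.5 ± 3.26 to 116 ± 11.6 CPM and the chemokine-scavenging receptor Ackr2 from 7.96 ± 4.14 to 51.7 ± 8.07 CPM. Further large rises were in the synaptic organiser Cbln4 (2.67), the calcium-binding S100a5 (2.62) and the GABA receptor subunit Gabra4 (2.54).

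The rises with the smallest p were in genes that WT cells already expressed. Hdc, which makes histamine, was at 763, 817, 733 and 723 CPM in WT and at 2032, 1995, 1830 and 1844 CPM in KO cells (log2 change 1.34, SE 0.0612, edgeR adjusted p = 2.74e-09). The MHC class II chain H2-Ab1 was at 12814, 12939, 13979 and 14123 CPM in WT and at 25201, 25373, 25231 and 24921 CPM in KO cells (log2 change 0.90, SE 0.043). Both genes had a small spread within each genotype. That all KO libraries lay above all WT libraries was a condition for naming them. Calcb, the beta form of calcitonin gene-related peptide, rose from 630 ± 27.9 to 1906 ± 214 CPM and S100a16 from 411 ± 12 to 1091 ± 45.2 CPM (SD, n = 4 each). Dnmt3l, a cofactor of DNA methyltransferases in germ cells, was at 47.4, 46.0, 58.5 and 49.1 CPM in WT and at 286, 266, 236 and 256 in KO cells (log2 change 2.37). It overlaps Aire on the opposite strand, and the counts carry no strand, so reads of the overlap cannot be divided between Aire and Dnmt3l.

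Lists of genes by function or cell type are given by the number of tested members called in each direction and by their median log2 change, beside the median of −0.03 over all tested genes. Over all tested genes 13.2% were called higher and 15.5% lower. Some genes stand on several lists and are counted in each. The lists were chosen with earlier results of these data known. The list of antigens known to need Aire had 25 tested members of 29, of which 20 were called lower and 1 higher. Its median was −4.04, or −3.86 with members that had no KO count set at their bound. Leaving out any of the 8 libraries left 16 to 19 called lower. The liver gene Fgg, a fibrinogen chain, went from 22.0 ± 8.49 to 0.104 ± 0.209 CPM (log2 change −7.10), and Tff3, a trefoil peptide of mucus, from 31.3 ± 16.8 to 0.234 ± 0.468 CPM (log2 change −6.86). Insulin 2 (Ins2) was at 6.82, 23.7, 29.4 and 5.17 CPM in WT and at 0, 0, 0.468 and 0.502 CPM in KO libraries (log2 change −5.94). Csn1s1, a milk casein, fell by 4.58 on the log2 scale. The other casein on the list, Csn2, was the exception: it was at 512, 577, 769 and 539 CPM in WT and rose to 1394, 1418, 1384 and 1321 CPM in KO cells (log2 change 1.21, edgeR adjusted p = 5.28e-06).

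Antigens attributed to Fezf2 or known to be made without Aire moved less. Of 11 tested, 4 were called lower and 2 higher, with a median of −0.50. Fezf2, the other regulator of tissue genes in the medulla, itself rose from 132 ± 17.5 to 225 ± 18.9 CPM (log2 change 0.76), and Maoa, which breaks down monoamines, rose by 1.33. Apob, the main protein of lipoprotein particles, fell by 2.23 and Calb1, a calcium-binding protein, by 1.31. The number called lower was 2 without WT spermidine 2, KO PBS 1 or KO PBS 2, and the median was −0.82 without KO spermidine 2.

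Antigen presentation through MHC class II rose together. Of 14 tested members 13 were called higher, also with any library left out, and the median was 0.85. H2-Aa, the partner chain of H2-Ab1, was at 6468, 6494, 6917 and 6445 CPM in WT and at 11806, 12227, 11750 and 11607 in KO libraries. Cd74, the invariant chain, rose from 9791 ± 667 to 16345 ± 813 CPM and Ciita, the transactivator of the class II genes, from 564 ± 38.3 to 1016 ± 71.8 CPM (log2 change 0.85, SE 0.0698). H2-Ob, a brake on peptide loading, rose by 1.21 and the loading chaperone H2-DMb1 by 1.07. The 1 member called lower was the lysosomal protease Ctsl (log2 change −0.55), and 6 of the 8 single-library omissions ended that call. The summed level of the list was 36000 to 38900 CPM in WT and 65600 to 67700 CPM in KO libraries.

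MHC class I changed far less. Of 15 tested members 5 were called higher, with a median of 0.06. The loading factor Tapbp and the immunoproteasome subunit Psmb10 each rose by 0.60 on the log2 scale. H2-K1 and B2m, which are parts of surface class I, differed by 0.05 and 0.06 and were not called. The class I chain H2-D1 was at 5461 to 5949 CPM in WT and 6652 to 6848 CPM in KO libraries. It was called higher, but not with library totals. With library totals as the scale, 2 members were called higher and 3 lower, so the direction of this list depends on scaling.

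Costimulatory molecules and receptors of the TNF family rose with MHC class II. Of 14 tested members 12 were called higher in the 8-library fit and in each of the 8 fits with a library left out, with a median of 0.80, while with library totals 12 were higher and 1 lower. Cd80 was at 130, 118, 110 and 112 CPM in WT and at 272, 232, 208 and 229 in KO libraries (log2 change 1.00, SE 0.0921, edgeR adjusted p = 1.05e-06). Cd86, the other ligand of CD28, rose from 67.6 ± 14.3 to 140 ± 23.7 CPM. Cd40, the receptor through which T cells instruct the medulla, rose from 262 ± 21.3 to 450 ± 54.8 CPM, and Tnfrsf11b, the decoy receptor of RANK ligand, from 221 ± 32.2 to 482 ± 53.7 CPM. Ctla4 was at 8.26, 18.5, 16.7 and 13.4 CPM in WT and at 86.1, 61.7, 72.0 and 98.0 in KO libraries (log2 change 2.49). Cd274, which encodes PD-L1, was at 188 ± 14.9 and 196 ± 25.2 CPM and was not called.

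Of 17 tested transcription factors of the medulla, 7 were called higher and 4 lower, with a median of 0.11. Relb, the NF-kB subunit needed for the medulla to form, was at 472, 504, 499 and 483 CPM in WT and at 938, 814, 857 and 848 in KO libraries. Irf8 rose from 325 ± 98.0 to 997 ± 205 CPM and Foxn1, the master factor of thymic epithelium, from 212 ± 22.6 to 310 ± 16.8 CPM. Tbx21 rose by 2.03, from 31.3 ± 8.37 CPM, a call lost without either WT spermidine library or without WT PBS 2. Klf4, a factor of epithelial differentiation, fell from 38.4 ± 6.73 to 18.6 ± 4.16 CPM and Irf7 from 198 ± 23.1 to 112 ± 12.1 CPM. Of 20 tested partners of Aire and factors of DNA breaks, 3 were called higher and 1 lower, with a median of −0.04: Sirt1, the deacetylase that acts on Aire, rose by 1.07, the acetyltransferase Crebbp by 0.94 and Dnmt3a by 0.51, while Top1, the topoisomerase, fell by 0.43 in a call lost in 4 of the 8 omissions. Of 18 tested members of the NFE2 and MAF family and its targets, 6 were called higher and 2 lower, with a median of 0.14, and with library totals 3 and 3. Nfe2l2 itself was at 79.4 ± 2.35 and 75.9 ± 7.35 CPM and was not called.

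Genes of the interferon response fell. Of 28 tested members 21 were called lower and 1 higher, with a median of −0.78, and 17 to 20 were called lower with a library left out. Isg15, a ubiquitin-like modifier, was at 57.8, 60.2, 61.7 and 47.0 CPM in WT and at 16.3, 20.4, 29.9 and 22.6 CPM in KO libraries (log2 change −1.36, SE 0.185, edgeR adjusted p = 5.27e-05). The antiviral enzyme Rsad2 fell by 1.69, Oas2 by 1.35 and Oasl2, a sensor-like relative, from 454 ± 32.9 to 271 ± 28.5 CPM. Members near each other in sequence, such as those of the Oas and Ifit families, share reads that the counting may have divided. Ifi35 rose by 0.48. The summed level was 2880 to 3240 CPM in WT and 2110 to 2410 CPM in KO libraries, without overlap.

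Chemokines split. Of 13 tested, 3 were called higher and 4 lower, with a median of −0.45. Ccl25, which draws progenitors and thymocytes, rose from 390 ± 39.5 to 826 ± 23.9 CPM, Cxcl10 from a range of 227 to 257 CPM to one of 403 to 506 CPM, and Cxcl16 from 129 ± 16 to 220 ± 26.6 CPM. Ccl6 was at 88.3, 101, 88.9 and 55.6 CPM in WT and at 10.9, 11.4, 10.8 and 17.1 CPM in KO libraries (log2 change −2.74). Ccl9 fell by 2.42 and Ccl20, a chemokine of mucosal epithelium that attracts cells carrying CCR6, by 2.49, from 172 ± 42.1 to 30.9 ± 16.9 CPM.

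Programs of mimetic cells were mostly lower, and by different amounts. Of the markers of cells resembling the liver and gut (enterohepatocytes), 12 of 16 tested were called lower, with a median of −2.60. The acute-phase protein Saa1 was at 96.6, 59.8, 119 and 122 CPM in WT and at 1.67, 3.02, 1.40 and 0.502 in KO libraries (log2 change −5.72, SE 0.318). The factor Hnf4a fell by 2.89. Of the secretory markers 8 of 14 were lower and 1 higher, with a median of −2.92. Tff1 went from 10.9 ± 1.22 to 0.0838 ± 0.168 CPM and the intestinal mucin Muc2 from 40.8 ± 32.1 to 1.80 ± 0.821, while Fcgbp, a mucus protein, rose from 4470 ± 409 to 7509 ± 339 CPM. The summed secretory level therefore went up, from 4720 to 6230 CPM in WT to 7350 to 8180 CPM in KO libraries, although most called members fell.

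Ciliated, tuft and microfold markers fell as well. Of 15 ciliated markers tested, 11 were called lower, with a median of −1.72. Mcidas, which starts the ciliated program, was at 29.4, 19.9, 43.6 and 12.5 CPM in WT and at 0.418, 1.34, 0 and 0 in KO libraries (log2 change −5.55), and Dynlrb2, a dynein light chain, fell by 5.36. Foxj1, the master factor of motile cilia, was at 36.8 ± 14.4 and 23.1 ± 5.85 CPM and was not called. Of 16 tuft markers 10 were lower, with a median of −1.34. WT PBS 2 stood apart in them: Trpm5, the taste-signalling channel, was at 278, 94.4, 276 and 318 CPM in WT and at 75.2, 61.3, 110 and 115 CPM in KO libraries, and 14 were lower without WT PBS 2. The kinase Dclk1, from 145 ± 45.4 to 49.3 ± 12.3 CPM, and the tuft master factor Pou2f3, by 1.28, were among them. Of 13 microfold markers 7 were lower and 2 higher, with a median of −0.96, and Gp2, the microfold receptor for bacteria, went from 493, 769, 583 and 614 CPM to 100, 22.5, 60.8 and 106 CPM (log2 change −3.12). The lower chemokines Ccl20, Ccl9 and Ccl6 and the higher Tnfrsf11b, named above, are counted here again. Of 8 ionocyte markers 5 were lower, with a median of −1.52, in a count of 2 without KO PBS 1 and 3 without KO PBS 2 or KO spermidine 2. The factor Foxi1 ran from 2.15 to 60.8 CPM over the 4 WT libraries, and its call was lost without any 1 of the 4 KO libraries.

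Muscle and neuroendocrine markers had calls in both directions, and the called keratinocyte markers were lower. Over all tested genes 13.2% were called higher and 15.5% lower, and the muscle counts lie close to these shares. Of 13 muscle markers tested 2 were called higher and 2 lower, with a median of 0.93: the Z-disc protein Myot was at 3.23, 5.22, 7.09 and 6.46 CPM in WT and at 30.5, 30.2, 42.6 and 23.1 CPM in KO libraries (log2 change 2.54, edgeR adjusted p = 6.56e-06), and Des rose by 0.93. Skeletal actin, Acta1, ran from 0 to 18.0 CPM in WT and from 0 to 409 in KO libraries and was not called. The muscle median was 0.45 without KO PBS 2. Of 9 neuroendocrine markers 3 were lower and 1 higher, with a median of −0.81 that was −0.35 without WT spermidine 1 and −1.34 without KO PBS 1. The granule protein Chgb fell from 13.2 ± 6.58 to 0.577 ± 0.446 CPM and the factor Insm1 rose from 8.2 ± 1.99 to 18.0 ± 3.96 CPM. Of 17 keratinocyte markers 4 were lower, Pou2f3 of the tuft list among them, and the median was −0.68. Only 2 were lower without WT spermidine 2, KO spermidine 1 or KO spermidine 2, and the median was −0.37 without KO PBS 2, −1.07 without WT PBS 2, −1.17 without KO PBS 1 and −1.19 without KO spermidine 1.

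**Figure D2:**
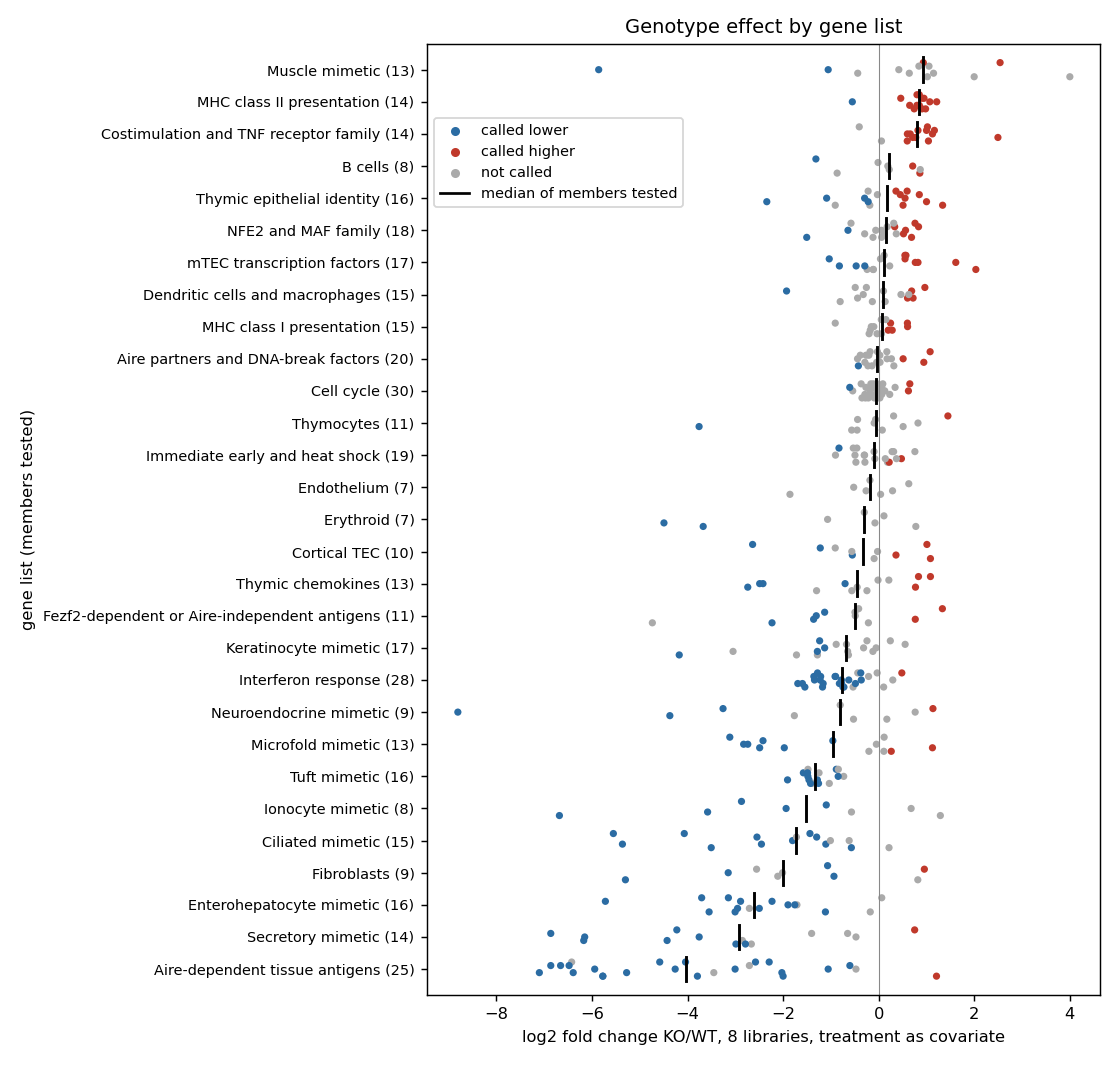
Log2 fold change of each tested member of the 29 gene lists in the 8-library fit, blue for called lower, red for called higher, grey for not called, with the list's median as a black bar and the number of tested members in brackets. Aire-dependent antigens lie at the bottom with a median of −4.04 and MHC class II near the top with a median of 0.85; the points of Gip (leftmost) and Myod1 (leftmost in the muscle row) had no KO count, so their place depends on the prior count.

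Markers of the epithelium itself moved in both directions. Of 16 tested, 8 were called higher and 4 lower (2 lower without WT PBS 1, KO PBS 1 or KO spermidine 2), with a median of 0.17. The higher ones include Aire itself, and H2-Aa, Cd80 and Foxn1, which are also counted in lists above. The basal keratin Krt5 was at 782, 737, 727 and 672 CPM in WT and at 277, 355, 387 and 354 CPM in KO libraries (log2 change −1.09, SE 0.0972), and Krt19 fell from 92.0 ± 39.1 to 17.5 ± 3.06 CPM. The simple-epithelium keratins Krt8 and Krt18 rose by 0.45 and 0.51. Of 10 cortical markers 3 were higher and 3 lower. Of 30 cell cycle genes 2 were higher and 1 lower, with a median of −0.07, and Mki67, a proliferation marker, was at 70.2 ± 19.5 and 67.5 ± 11.5 CPM. Without WT PBS 1, 5 cell cycle genes were lower and the median was −0.21, and without WT PBS 2 it was 0.06. Of 19 immediate early and heat shock genes 2 were higher and 1 lower, with a median of −0.10, while with library totals all 5 called were lower. Their counts rested on single WT libraries: 5 were higher without WT PBS 1 and 4 without WT spermidine 2, and 4 were lower without WT PBS 2 and 5 without WT spermidine 1.

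Markers of cells outside the epithelium were detected in both genotypes. Summed over their lists, thymocyte markers were at 149 to 238 CPM in WT and 197 to 326 CPM in KO libraries, with 1 of 11 tested called higher and 1 lower (3 higher without WT PBS 1). B cell markers were at 338 to 524 and 465 to 590 CPM (2 of 8 higher, 1 lower), and markers of dendritic cells and macrophages at 1640 to 1900 and 1600 to 2250 CPM (4 of 15 higher, 1 lower; 2 higher without KO spermidine 1 and 3 lower without WT spermidine 1). No member of these 3 lists was at 0 in all 8 libraries. Endothelial markers were at 56.4 to 139 and 62.7 to 111 CPM (7 tested, median −0.18). Fibroblast markers were at 237 to 498 CPM in WT and 213 to 254 CPM in KO libraries, with 4 of 9 lower and 1 higher (7 lower without WT spermidine 2): collagen Col1a1 was at 105, 61.6, 99.9 and 59.5 CPM in WT and at 2.09, 0.335, 1.40 and 5.02 in KO libraries, while the matrix protein Dcn rose by 0.95. Of 7 erythroid markers 2 were lower, and their median was −2.21 in the PBS pair and 0.83 in the spermidine pair. With 8 libraries the erythroid median was −0.30, from −2.33 without KO spermidine 1 to 0.62 without WT PBS 2. The part of such cells in the changes above was not tested.

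KO libraries held fewer kinds of transcript. With every library thinned to 2027205 counts, genes with at least 1 count numbered 27630, 26906, 27967 and 26963 in WT and 23693, 24228, 23966 and 24350 in KO libraries, without overlap. The difference was −3307 genes (WT 27366.5 ± 518, KO 24059 ± 292, SD, n = 4; exact permutation test, two-sided, p = 0.0286, the smallest that 4 against 4 allows). Permuted within treatment the smallest possible p is 0.0556, which was also the result. Mitochondrial transcripts took 1.66, 1.85, 1.56 and 1.52% of counts in WT and 1.20, 1.21, 1.21 and 1.24% in KO libraries. Their part in the other results was not tested.

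WT libraries also differed more among themselves than KO libraries did. The biological coefficient of variation, the spread between libraries beyond counting error, was 0.23 over the WT and 0.157 over the KO libraries when each genotype was fitted alone. Log CPM correlated at r = 0.924 to 0.938 across genes between WT libraries, 0.956 to 0.963 between KO libraries and 0.862 to 0.88 between WT and KO libraries. These correlations describe genes of the same libraries and carry no test. Genes that fell were also the variable ones in WT cells outside the comparison. These were 4 other WT mTEChi libraries of the series (2 from DMSO-injected mice, 2 from untreated Foxn1-cre, Nfe2l2+/+ mice). The median SD of log2(CPM + 1) within those groups was 0.397 for genes called lower, 0.19 for genes called higher and 0.253 for all tested genes. Their median level there was 18.1, 61.2 and 25.2 CPM, and the SD of a log value also rises as levels fall. Genes called at least 2-fold lower had an SD of 0.518 and a median level of 11.1 CPM. Among genes at 5 to 20 CPM in those libraries, the SD was 0.534 for lower, 0.372 for higher and 0.343 for genes not called. It was 0.285, 0.196 and 0.199 at 20 to 100 CPM, and 0.167, 0.136 and 0.136 at 100 CPM or more. Binned by level in those libraries, 18.8% of the 5009 genes at 5 to 20 CPM were called lower and 6.25% higher, against 10.6% and 33.3% of the 2103 genes at 100 CPM or more.

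**Figure D3:**
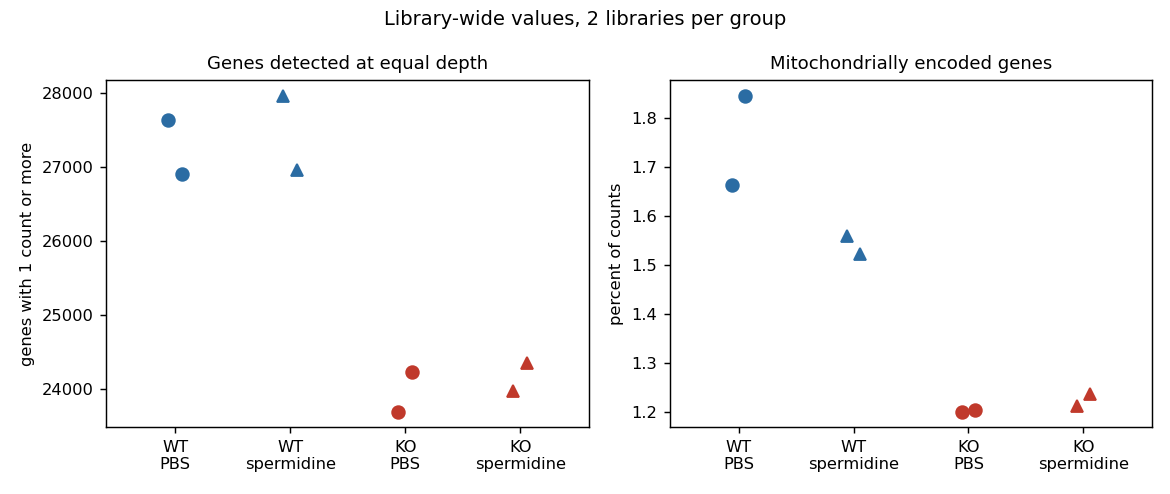
Genes with 1 count or more at equal depth (left) and percent of counts from mitochondrially encoded genes (right) in each of the 8 libraries, by group, with neither axis starting at 0. WT libraries lie between 26906 and 27967 detected genes and KO libraries between 23693 and 24350, and mitochondrial shares were 1.52 to 1.85% in WT and 1.20 to 1.24% in KO libraries.

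The PBS and spermidine pairs repeated the genotype effect to a large extent. In the PBS pair (2 against 2) 2153 genes were called (13.7%), 1137 lower (7.22%) and 1016 higher (6.45%), and in the spermidine pair 2788 (17.7%), 1449 lower (9.2%) and 1339 higher (8.5%). At least 2-fold changes were 983 of the lower (6.24%) and 487 of the higher calls (3.09%) with PBS, and 1130 (7.17%) and 522 (3.31%) with spermidine. Of the genes called in the PBS pair, 98.1% had the same sign with spermidine and 65.9% were called there in the same direction, and of those called in the spermidine pair 97.5% had the same sign with PBS and 50.9% were called in the same direction. Across all 15750 tested genes the log2 changes of the pairs correlated at Pearson's r = 0.783 and Spearman's rho = 0.699 with 74.8% of equal sign, and across the 13611 genes with a mean of 5 CPM or more at r = 0.811. Genes are not independent replicates, and these are descriptions. The number of calls in a pair depends on single libraries: the PBS pair had 558 without KO PBS 1 and 845 without KO PBS 2, where the lone KO library is assumed to vary like the others, and the spermidine pair fell to 1798 without KO spermidine 2. Other scaling and another test moved the split in each pair. With library totals 695 were higher and 1549 lower with PBS, and 987 and 1867 with spermidine. With limma-voom 837 were higher and 642 lower with PBS, and 1084 and 752 with spermidine.

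Genes that rose repeated more often as calls than genes that fell. Of the 1016 called higher with PBS, 98.9% rose with spermidine in sign and 77.5% were called, against 8.5% of all tested genes. Of the 1137 called lower with PBS, 97.4% had the same sign and 55.5% were called, against 9.2%. Their median log2 change was −2.35 with PBS, which chose them, and −1.65 with spermidine (−1.60 with genes without KO counts at their bound), and 66.8% were at least 2-fold lower there. The genes called higher had medians of 0.98 and 0.83, and 37.6% were at least 2-fold higher with spermidine. Genes called higher with 8 libraries had a median level of 61.2 CPM in the 4 other WT libraries, against 18.1 CPM for genes called lower. Their SD there was 0.19 against 0.397. The part of level and spread in the share of repeated calls was not tested. Chosen the other way round, 43.5% of the 1449 genes lower with spermidine were called lower with PBS (7.22% of all), with medians of −2.13 and −1.45 (−1.44 at the bound), and 58.8% of the 1339 higher genes were called higher (6.45% of all), with medians of 0.86 and 0.80.

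Larger changes in the PBS pair went with larger changes in the spermidine pair. Among genes lower with PBS by a log2 change of −1 to −2 (339 genes) the spermidine median was −1.03, and by −2 to −4 (338 genes) it was −2.26. By −4 to −6 (183 genes) it was −3.46 and beyond −6 (123 genes) −3.71, with genes that had no KO spermidine count set at their bound (43 and 56 genes in the last bins). The same direction was found in 97.1 to 99.5% of the genes of these bins, and the share called lower was 52.5, 56.5, 54.1 and 65%. Among genes higher with PBS by up to 1 (529 genes), 1 to 2 (400) and over 2 (87) the spermidine medians were 0.63, 1.11 and 1.90. A gene chosen for its call in 1 pair is on average further from 0 in that pair than in the other, so the smaller size in the second pair is no measure of treatment.

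**Figure D4:**
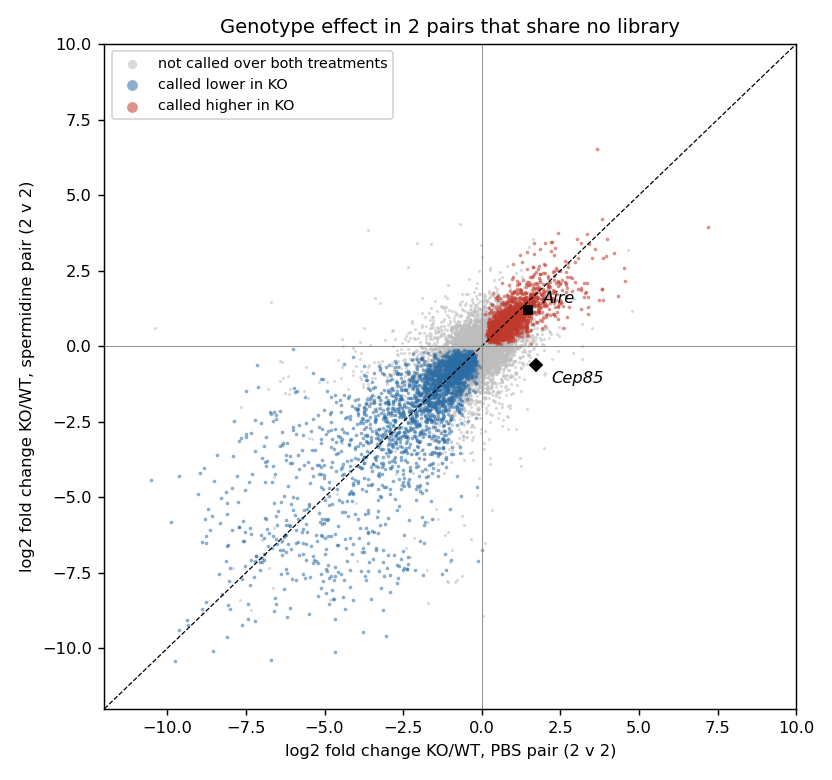
Log2 fold change KO over WT of each tested gene in the PBS pair (horizontal) against the spermidine pair (vertical), blue for genes called lower, red for genes called higher and grey for genes not called with 8 libraries, with the diagonal dashed. The cloud follows the diagonal, with r = 0.783 over 15750 genes and 1418 genes called in both pairs in the same direction.

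In all, 1418 genes were called in both pairs in the same direction, 631 lower and 787 higher, and 2 were called in opposite directions. Of the 4515 genes called with 8 libraries, these 1418 were called in each pair, 1703 in a single pair and 1394 in neither, and 4514 had the same sign in both pairs. The exception was Crh, the corticotropin-releasing hormone, with no counts in WT PBS or KO libraries and 4.61 and 6.89 CPM in WT spermidine, chosen here after its values were seen. Several lists had like medians in both pairs, and others did not. Aire-dependent antigens had a median of −4.56 with PBS and −4.05 with spermidine, with all 25 tested members of equal sign, MHC class II 0.87 and 0.83 (14 of 14), costimulation 0.76 and 0.81 (14 of 14), interferon genes −0.88 and −0.76 (26 of 28) and tuft markers −1.42 and −1.22 (16 of 16). Chemokines were less alike, with medians of −0.78 and 0.25 and 8 of 13 members of equal sign. Thymocyte markers had medians of −0.72 and 0.48 (6 of 11 of equal sign), and equal signs were found in 15 of 30 cell cycle genes, 2 of 7 endothelial and 3 of 7 erythroid markers, against 74.8% of all tested genes.

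A gene set taken from 1 pair also marked genotype in the other. The 1137 genes lower with PBS made up 11.8 and 11% of counts in the WT spermidine libraries and 6.34 and 6.04% in the KO spermidine libraries. The 1449 genes lower with spermidine made up 13.6 and 13.1% in WT PBS and 7.08 and 7.08% in KO PBS. The 1016 genes higher with PBS went from 19.2 and 19.0% to 29.8 and 30.0% with spermidine, and the 1339 genes higher with spermidine from 23.0 and 23.1% to 36.6 and 34.9% with PBS. No WT library overlapped a KO library in these shares, and the exact permutation test gave p = 0.333, the smallest that 2 against 2 allows. Genes at least 2-fold lower in 1 pair took 3.61% of WT and 1.18% of KO counts with spermidine (983 genes) and 3.37% and 1.01% with PBS (1130 genes).

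The difference in genotype effect between the treatments was called for 1 gene. The interaction of genotype and treatment was called for Cep85, a centrosomal protein, alone (1 of 15750, 0.00635%), with 713 genes at an unadjusted p under 0.05 and 2 genes called by DESeq2. That count was 52 without the low-count filter, 9 without WT PBS 1 and at most 3 without any of the other 7 libraries, so it does not show that other genes responded alike. Cep85 lies on chromosome 4 (134129858 to 134187112, minus strand). It was at 308 and 377 CPM in WT PBS, 542 and 405 in WT spermidine, 1210 and 1071 in KO PBS and 331 and 285 in KO spermidine. The KO PBS libraries thus stood above all others. KO over WT was 1.74 with PBS (edgeR adjusted p = 4.38e-05) and −0.63 with spermidine (edgeR adjusted p = 0.00966), and the difference was −2.36 (SE 0.216, edgeR adjusted p = 0.00156). It was called with each of the 8 libraries left out, at −2.13 to −2.55. Gm42031, a predicted gene, was the other gene with opposite calls in the pairs, at 30.1 and 32.9 CPM in KO PBS and 5.61 and 8.04 in KO spermidine, but its interaction was not called.

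**Figure D5:**
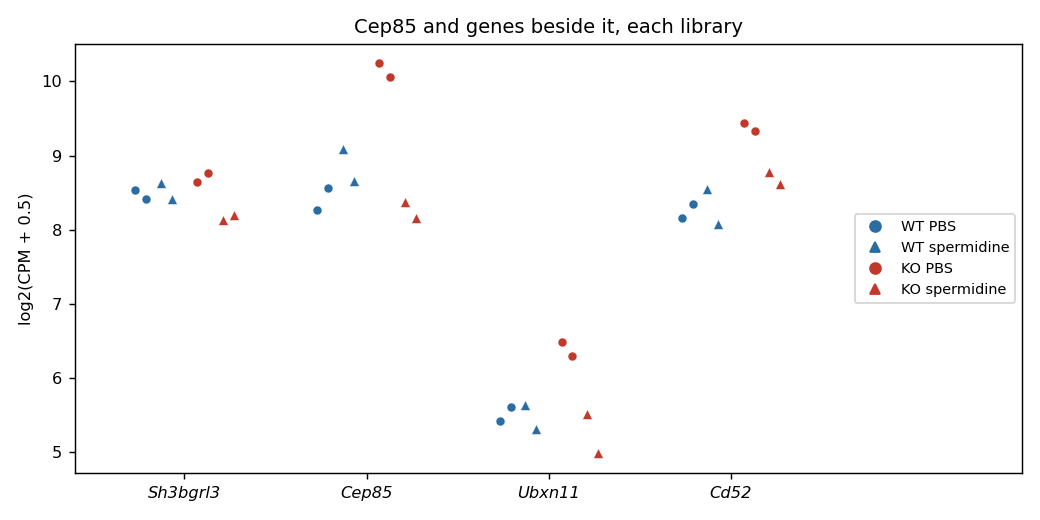
Level of Cep85 and of 3 of the genes beside it in each of the 8 libraries, as log2(CPM + 0.5), with circles for PBS, triangles for spermidine, blue for WT and red for KO. Cep85 was at 1210 and 1071 CPM in the KO PBS libraries and between 285 and 542 CPM in the other 6.

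Some genes beside Cep85 had smaller interactions of the same sign, which were not called: −0.77 in Cd52, −1.09 in Ubxn11 and −0.59 in Sh3bgrl3, each at an edgeR adjusted p of 0.841. Others had the opposite sign, with 0.70 in Crybg2, which overlaps Cd52, and 0.61 in Trim63. Cnksr1, Pdik1l and Slc30a2 had −0.26, −0.20 and −0.27. None of these was called either. Within the pairs, Ubxn11 had a change of 0.89 with PBS (edgeR adjusted p = 0.0121) and −0.21 with spermidine, and Cd52, a lymphocyte surface glycoprotein, 1.13 (edgeR adjusted p = 0.000264) and 0.36. Sh3bgrl3, which lies next to the end of Cep85, had 0.23 and −0.36 (edgeR adjusted p = 0.0346 with spermidine).

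Called genes often had a neighbour called in the same direction. A neighbour was the nearest tested gene on either side that did not overlap the gene and lay within 100 kb. Of 2186 lower genes with a neighbour, 40% had a lower one, against 24.6% of all tested genes with a neighbour. Of 1871 higher genes with a neighbour, 38% had a higher one, against 20.5%. Runs of 4 or more tested genes in order, all called the same way, numbered 34 for lower and 30 for higher genes. Overlapping genes were passed over in the neighbour shares but may stand in the runs, where they share reads since the counts carry no strand. Paralogs may share reads in both. How much of this nearness comes from shared reads was not tested.

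Several lower runs were gene families. On chromosome 17 the tryptase cluster Prss28, Prss29, Tpsab1, Tpsb2 and Tpsg1 (25308646 to 25374442) fell as a run, and so did Prss32, Dcpp1, Dcpp3, Sbp and Sbpl (23843855 to 23955274), genes of saliva and seminal fluid. The largest run had 11 genes around the Oas family on chromosome 5 (120730333 to 121010092). Among higher runs, 9 genes of the S100 family on chromosome 3 (90511034 to 90624181) rose by 0.78 to 2.62 on the log2 scale, with S100a4 from 24.2 ± 3.31 to 64.1 ± 3.16 CPM and S100a6 from 119 ± 7.48 to 276 ± 33.5 CPM. Other members of the family fell. S100a11 and S100a10 stood in a lower run on that chromosome (93393699 to 93564643), at −0.57 and −0.96. S100a8 was at 538 to 1785 CPM in WT and 60.8 to 343 CPM in KO libraries, a lower call lost in 7 of the 8 omissions. A run of 9 on chromosome 11 (100704746 to 101063719) held the signalling factors Stat5b, Stat5a and Stat3, and Stat3 rose from 659 ± 20.6 to 1110 ± 29.4 CPM. A run of 6 on chromosome 17 (34305867 to 34477318) held the class II gene H2-Eb1 and the butyrophilin-like genes Btnl1, Btnl2 and Btnl4, which rose by 1.52, 1.23 and 0.82.

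Aire stands inside such a run. Pfkl, a glycolytic enzyme, Aire, Dnmt3l, Icosl and Gm47922 (chromosome 10, 77986947 to 78138097) rose by 1.13, 1.34, 2.37, 1.16 and 2.06. Icosl, the ligand of the T cell receptor ICOS, was at 166, 166, 162 and 170 CPM in WT and at 420, 366, 344 and 360 CPM in KO libraries. The next genes on either side, Trpm2 and Pwp2, had changes of 0.26 and 0.41 and were not called. Within 1 Mb of Aire, 42.3% of 26 other tested genes were called, and within 10 Mb 34.7% of 222, against 28.7% of all. Those within 1 Mb were 5 lower and 6 higher, with a median log2 change of 0.004 over the 26. The other genes of the run, Pfkl, Dnmt3l, Icosl and Gm47922, are among the higher ones.

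The letters TATAAA were found more often at starts of lower genes than of genes not called, also among genes of similar level. In 300-base promoters of RefSeq (250 bases before to 50 after the start, 11902 tested genes matched), TATAAA was found on either strand in 14.9% of genes called lower, 18.1% of those at least 2-fold lower, 9.2% of those called higher and 7.3% of those not called, against 14.2% of all 27025 promoters in the table. It was found in 6 of the 11 matched genes among the 12 largest falls and in none (0) of 11 among the 12 largest rises. TGAGTCA, the site letters of AP-1, were in 6.84, 8.08, 4.21 and 3.57% of the same classes, against 5.17% of the table, and the same letters preceded by TGC, as in sites of NFE2 with small MAF proteins, in 0.217, 0.314, 0.0648 and 0.0704%, against 0.141%. The dinucleotide CA repeated 6 times was in 0.489, 0.628, 0.842 and 0.552%, against 0.932%. The median ratio of observed to expected CpG was 0.424 in lower, 0.316 in at least 2-fold lower, 0.73 in higher and 0.75 in genes not called. Genes were also split by level in the 4 other WT mTEChi libraries. At 5 to 20 CPM, TATAAA was in 12.8% of lower, 11.3% of higher and 7.44% of genes not called, median GC content was 55.7, 55.8 and 59.7%, and the CpG ratio was 0.358, 0.485 and 0.694, so lower and higher genes lay closer to each other there than over all levels. At 20 to 100 CPM, TATAAA was in 13.7, 7.35 and 6.44%. A letter match is a description and shows no binding, and these shares carry no test. Protein-coding genes made up 96.6% of lower and 89.7% of higher genes, and long intergenic RNAs 1.04% and 3.75%.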

How the data were processed

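RNA-seq counts per gene of 8 mTEChi libraries were used as deposited. The authors deposited whole-number counts per gene, and the submitters' processing notes name STAR, featureCounts, kallisto, TopHat2 2.1.1, SAMtools 1.3.1 and build mm10 without saying which step made which file. Smart-seq2 reads have no molecular identifiers or strand, so bounds cover counting error only. Of 55011 genes, 15750 passed filterByExpr over the 4 groups. They were tested with edgeR 4.0.16 (TMM, robust quasi-likelihood fit, genotype with treatment as covariate) in R 4.3.3, with Benjamini-Hochberg adjustment over all tested genes. Pairs were fitted apart on the same genes, and the interaction in a fit with a mean per group. SE is the log2 change over the square root of F. A group without counts was set at 3 counts over the group.

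Named genes are Aire, the 12 largest changes and 5 smallest p per direction (mean of 5 CPM or more, no overlap between genotypes, predicted genes left out), up to 6 called members per list and direction, and called interactions. Some genes that meet this are not reported here. Members of lists that were not called, and genes around Aire and Cep85 or in runs, are named beside them. Libraries, lists and tests were chosen with earlier results of these data known. Scripts were tested on simulated data. Alternatives were other scaling, filters, DESeq2 1.42.0, limma 3.58.1 (voom), a fold threshold, all 16 mTEChi libraries, no covariate, the replicate number as a block and omission of each library. For 53009 genes the symbol matched GENCODE M21. Counts of 2 replicates differed by more than sampling noise in every group (chi-square per degree of freedom 3.05 to 6.08). The other samples of the series are not analysed here, except 4 WT mTEChi libraries as a level outside the comparison.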

Additional observations from a re-analysis of the deposited data

Results flagged for a closer look

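In groups of 4 libraries, a library was marked where its gap to the nearest other exceeded Dixon's 95% critical share of the group's range. Of 61 groups checked, 2 had such a library, and chance marks about 1 in 20. Aire in KO PBS 1 was at 4886 CPM, against 3944 to 4033 CPM in the other 3 KO libraries. Pla2g1b in WT PBS 2 was at 23.7 CPM, against 18.7 to 19.4 CPM in the other 3 WT libraries. The effect of genotype on Cep85 differed between the treatments by −2.36 on the log2 scale (edgeR interaction adjusted p = 0.00156). It was higher in KO cells with PBS and lower with spermidine, and 1 gene of 15750 was called in that test, 52 without the low-count filter.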

How the results depend on the processing

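The genotype effect of 4515 calls had 3865 to 5190 under other scaling, filters, tools and libraries, and against a fold of 1.5 (glmTreat) 1794 were called, 613 higher and 1181 lower. Leaving out each library gave 3573 to 4326. No gene called in the reported fit was called the other way in any of these (0). The PBS pair had 558 to 2996 calls with a library left out. The spermidine pair had 1727 by DESeq2, 1836 by limma-voom and 1798 to 2734 with a library left out. The interaction had 52 calls without the low-count filter, 2 by DESeq2 and 1 to 9 with a library left out, Cep85 in each. Agreement of the pairs was r = 0.811 and 69.6% called the same way at a mean of 5 CPM or more, and 98.7% of equal sign by limma-voom. With a library left out r was 0.691 to 0.752, equal sign 94.3 to 99.4% and called the same way 51.1 to 82.6%. The difference in detected genes was −3307.25 with p = 0.0556 (exact) when permuted within treatment, and −3460.75 to −3107.08 with a library left out. The difference in share of counts was −2.44 points (spermidine) and −2.36 (PBS) for genes at least 2-fold lower, and −5.58 to −4.77 and −6.54 to −5.99 with a library left out. The causes were not tested. A voom fit with a weight per genotype, chosen after seeing the data, called 4398. Over 232 named genes and 4396 values, 4009 kept their call, 387 lost it and none reversed (0).

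Libraries with the same replicate number share only that number: their deviations correlated at −0.0117 to 0.07, and 6 of 8 correlated best with their own number. With the replicate number as a block 4504 genes were called (2094 higher, 2410 lower), 2844 in the PBS pair, 2548 in the spermidine pair and 1 for the interaction. At 2027205 to 3176376 counts a library, genes under 5 CPM rest on few reads.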
